A study of Brassica napus with 18 samples.

Results

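Wild-type oilseed rape (Brassica napus, an allotetraploid crop that carries an A and a C subgenome) was compared after 8 h and after 4 h in 200 mM NaCl. The comparison uses 6 of the 18 RNA-seq libraries of the study, chosen by their labels: 3 of WT plants treated for 8 h and 3 of WT plants treated for 4 h. The study also sequenced untreated WT plants and the same 3 treatments of bnagrp3, a mutant line of the glycine-rich protein gene BnaGRP3, to learn which pathways that gene acts on under salt. The WT groups are plants of the WT genotype grown for 3 weeks in Hoagland's nutrient solution, then given 200 mM NaCl for 8 h or for 4 h, or left without added NaCl (mock). The bnagrp3 groups were grown and treated in the same way, and the labels do not say which GRP3 copies are mutated. RNA came from the aboveground part, which the labels also call leaf, and was enriched for poly(A).

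The mock libraries belong to no stated clock time, so no untreated library is matched in time of day to either NaCl time, and time in salt and time of day cannot be told apart here. The labels do not say that the replicates are separate plants or cultures, and so a p-value here covers no more than how far these libraries differ, which can be a technical spread. The deposited values are TPM, a level per transcript length scaled to a fixed library total, which keep no read depth, so the depth of each library is unknown. In RNA from a whole shoot, fewer cells of a type and less RNA per cell cannot be told apart. Many genes have near-identical copies on the A and C subgenomes, and how the reads of such copies were divided is not stated, so a value for 1 copy is less certain than a sum over a family. Strand use in counting is also not stated, so a gene and an antisense partner cannot be told apart.

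High salt reaches a leaf first as an osmotic stress, which lowers water uptake and raises abscisic acid, and later as an ionic stress from sodium. Abscisic acid, made from carotenoids by NCED dioxygenases, induces protective proteins such as dehydrins and closes stomata, while aquaporins carry water through membranes. Many of the same genes follow the circadian clock, in which morning genes such as CCA1 and LHY and evening genes such as TOC1 (APRR1) repress each other over the day. Roles given below are those known for the Arabidopsis proteins after which the genes are named.

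Library quality comes first because it bears on every count. Correlations of log2(TPM + 1) between replicate libraries lay between 0.918 and 0.944 for WT at 8 h and between 0.888 and 0.940 for WT at 4 h, against 0.952 to 0.957 within the bnagrp3 NaCl groups, and 0 pairs of libraries were identical. A set of 326 genes at 5 TPM or more in every bnagrp3 library and at 0.2 TPM or less in at least 2 WT libraries was detected unevenly in WT. The rule itself asks for low values in some WT libraries, so part of this unevenness was fixed by it, though not which libraries are low. The level of the 326 genes as a share of the bnagrp3 level was 0.168, 0 and 0.369 in the 3 libraries at 8 h, 0, 0.670 and 0.233 in the 3 at 4 h, and 0.232, 0.254 and 0.214 in mock. Whether all libraries labelled WT come from plants of 1 genotype was not tested. The highest share at each time is that of replicate 3 at 8 h and replicate 2 at 4 h, and many results are therefore also given without those 2 libraries. None of the 326 genes passed the limma test between 8 h and 4 h, and 4 of them had an unadjusted p under 0.05. Their spread among the libraries of each time makes a call unlikely. The missing calls therefore cannot show that the uneven libraries left other results unchanged. Root markers (19 matched genes) summed to at most 0.51 TPM in any of the 6 libraries, with EXPA7 and PLT1 at 0 in all 6, and the meristem genes CLV3 and WUS were also at 0. The summed markers of guard cells were at 212 to 224 TPM at 8 h and 210 to 223 TPM at 4 h, and 0 of 26 tested genes were called by limma, also at an unadjusted p under 0.05. Those of xylem were at 269 to 330 TPM at 8 h and 284 to 343 TPM at 4 h. The sum of phloem markers was 681 to 759 TPM at 8 h and 550 to 694 TPM at 4 h (3 higher and 1 lower of 22), and the part of this shift in other results was not tested.

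Glycine-rich protein 3 genes are the family targeted in the other genotype. A gene model without a chromosome ID had 2241, 1428 and 2799 TPM at 8 h and 695, 1339 and 1148 TPM at 4 h in WT, and 1.19, 4.39 and 4.51 TPM at 8 h and 0.59, 0 and 1.16 TPM at 4 h in bnagrp3. It was thus abundant in every WT library and near 0 in every bnagrp3 NaCl library, and between the WT times it was not called (adjusted p = 0.0948). Of 13 such genes 11 could be tested and 1 passed: BnaC07G0084100ZS had 30.04, 22.0 and 39.5 TPM at 8 h, against 12.8, 14.1 and 13.1 TPM at 4 h (log2 fold change 1.10 ± 0.20 SE, adjusted p = 0.0223). Its call was lost in 4 of the 6 fits that each leave out 1 library, with an adjusted p of up to 0.0794. The most abundant member, BnaC03G0480300ZS, had 4178, 4391 and 3977 TPM at 8 h and 3381, 2128 and 3172 TPM at 4 h, groups that do not overlap but that did not pass the test (adjusted p = 0.109). BnaC04G0505400ZS and BnaA04G0199600ZS were listed at 0 in all 6 libraries.

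In WT shoots 3981 of 57923 genes tested, or 6.87%, differed between 8 h and 4 h of NaCl, with 2311 higher at 8 h (3.99%) and 1670 lower (2.88%). The test was limma on log2(TPM + 1), with p-values adjusted by the Benjamini-Hochberg method over all genes tested and a call at an adjusted p under 0.05. The median absolute change of called genes was 0.72 on the log2 scale, and 905 of them changed by at least 1 (413 higher and 492 lower). At an unadjusted p under 0.05 there were 13636 genes. The median log2 fold change over all tested genes was 0.05. Of all tested genes, 17.5% had the 3 libraries at 8 h all above those at 4 h and 10.6% had them all below. Fold changes on the log2(TPM + 1) scale understate the change of low genes.

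The number of calls depended on single libraries and the balance of directions on the scaling. Without replicate 1 at 8 h 749 genes were called, without replicate 2 at 8 h 1371, without replicate 3 at 8 h 1619, without replicate 2 at 4 h 1974, without replicate 3 at 4 h 1007 and without replicate 1 at 4 h 2812. In every 1 of these 6 fits and in the full one 609 genes were called, 284 of them higher and 325 lower at 8 h. With replicate 3 at 8 h and replicate 2 at 4 h both out, 539 genes were called (237 higher and 302 lower), of which 474 were also called with all libraries. Of the called genes 58.1% were higher at 8 h, against 41.8% after median-of-ratios rescaling (1539 higher and 2142 lower) and 49.4% after quantile normalisation (1677 higher and 1715 lower). Many counts for gene groups below are therefore given beside their values in these fits, and no group median at least 0.2 from 0 changed sign under any alternative listed in the closing section.

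**Figure D1:**
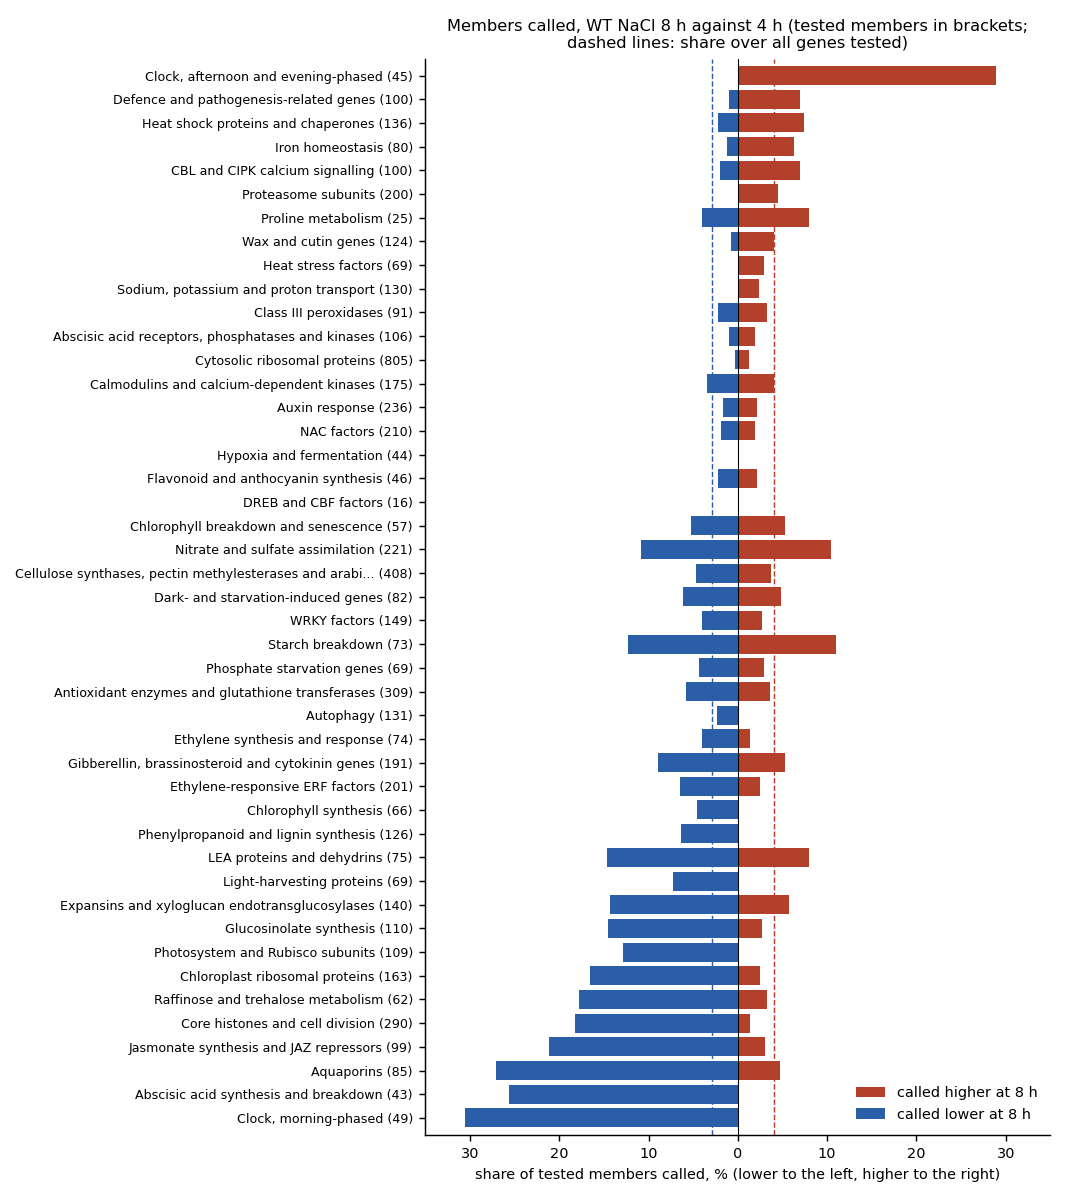
Shares of tested members called higher (right) or lower (left) at 8 h than at 4 h of NaCl in WT, by gene group, in percent of the members tested. The dashed lines mark the shares over all genes, 3.99% higher and 2.88% lower. Evening-phased clock genes reach furthest to the right, and morning-phased clock genes, aquaporins and abscisic acid synthesis reach furthest to the left.

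Genes of the circadian clock separated by the group to which they were assigned by name, and their phase was not measured here. Of 49 tested genes of the morning group (CCA1, LHY, the REVEILLE factors, LNK coactivators and the pseudo-response regulators APRR9 and APRR7), 15 fell and none rose, against 2.88% of all genes that fell. Of 45 tested genes of the afternoon and evening group (APRR1, APRR3, APRR5, ELF3, ELF4 and its relatives, LUX, GI and ADO2), 13 rose and none fell, against 3.99% of all genes that rose. Among the 13 risers were 2 copies of ADO2, whose place in this group was not checked. At an unadjusted p under 0.05, limma gave 1 riser in the morning group and 0 fallers in the evening group. The median change was -0.49 in the morning group and 0.39 in the evening group, beside 0.05 over all genes. The summed TPM of the morning group was 465, 465 and 463 at 8 h and 681, 660 and 679 at 4 h. That of the evening group was 569, 516 and 518 at 8 h and 319, 347 and 375 at 4 h. Neither sum overlaps between the times, and the libraries of a time lie close together.

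Within the morning group the called copies with the largest fold changes were those of LNK4, LNK3 and CCA1. CCA1, a MYB factor that represses evening genes at dawn, had 2 copies and both fell: BnaC04G0011300ZS had 10.2, 10.8 and 9.87 TPM at 8 h, against 30.04, 20.4 and 27.8 TPM at 4 h (log2 fold change -1.25 ± 0.135 SE, adjusted p = 0.00556). The other copy, BnaA05G0011000ZS, had 7.27, 6.67 and 10.8 TPM at 8 h, against 15.7, 22.1 and 19.8 TPM at 4 h (-1.14 ± 0.182, adjusted p = 0.0158). Both groups of CCA1 values stand well apart, with the 4 h level close to mock, where the 2 copies together had 45.4, 47.9 and 48.9 TPM. LHY, the partner of CCA1, summed over 5 copies to 7.29, 11.9 and 9.64 TPM at 8 h and 27.3, 15.4 and 23.4 TPM at 4 h. Of these 5 copies 3 were called lower, among them a pair with identical values in all libraries. None was called in 5 of the 6 fits that leave out 1 library, the exception being the fit without replicate 2 at 4 h, with 5. LNK4, of the family of coactivators that bind REVEILLE factors, fell in both copies: BnaA10G0258200ZS had 11.8, 9.37 and 11.8 TPM at 8 h, against 33.5, 34.4 and 33.1 TPM at 4 h (-1.54 ± 0.0976, adjusted p = 0.00156). Its second copy, BnaC09G0572300ZS, changed by -1.37, and 3 of the 4 LNK3 copies fell, BnaC03G0393400ZS by -1.11.

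Other morning members had smaller changes or no call. APRR7, a repressor of CCA1, summed to 149, 144 and 147 TPM at 8 h and 147, 156 and 153 TPM at 4 h, and none of its 4 copies was called by limma (1 higher at an unadjusted p under 0.05). RVE8 summed to 8.92, 15.5 and 8.08 TPM at 8 h and 12.8, 7.15 and 9.61 TPM at 4 h, with overlapping groups and 0 of 4 copies called by limma, also at an unadjusted p under 0.05. RVE4 had 1 of 4 copies called lower, with summed values of 14.8, 12.9 and 12.9 TPM at 8 h and 23.5, 26.8 and 22.7 TPM at 4 h. RVE1, of which no copy was called (1 lower at an unadjusted p under 0.05 in limma), had 3.27, 2.93 and 3.72 TPM at 8 h and 3.96, 4.32 and 6.53 TPM at 4 h, against 13.3, 14.6 and 13.9 TPM in mock.

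In the evening group the called copies with the largest fold changes were those of APRR1, ELF4 and ADO2. APRR1 (TOC1), the pseudo-response regulator that represses CCA1 and LHY, summed over 4 copies to 86.6, 73.8 and 87.2 TPM at 8 h, against 29.2, 28.8 and 41.5 TPM at 4 h and 35.2, 43.1 and 39.6 TPM in mock. Its copy BnaC09G0066100ZS had 25.2, 18.8 and 24.6 TPM at 8 h, against 5.50, 6.89 and 9.36 TPM at 4 h (log2 fold change 1.55 ± 0.182 SE, adjusted p = 0.00659). In all, 3 of the 4 copies were called in each of the 6 fits that leave out 1 library. With replicate 3 at 8 h and replicate 2 at 4 h both out, 0 of the 4 were called (limma adjusted p = 0.0637 for BnaC09G0066100ZS). ELF4, part of the evening complex with ELF3 and LUX, summed to 64.5, 74.5 and 52.1 TPM at 8 h and 21.2, 19.6 and 23.1 TPM at 4 h. Most of that came from 1 gene model without a chromosome ID, with 48.8, 58.2 and 37.3 TPM at 8 h and 17.1, 13.4 and 16.9 TPM at 4 h (1.53 ± 0.189, adjusted p = 0.00758). ADO2 (LKP2), a light-sensing F-box protein, rose in 2 of 6 copies: BnaA07G0015400ZS had 10.7, 9.89 and 10.5 TPM at 8 h, against 2.96, 3.60 and 3.29 TPM at 4 h (1.41 ± 0.0975, adjusted p = 0.00171). The other 4 ADO2 copies were not called, with changes of -0.22 to 0.07.

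LUX and GI were higher in every library at 8 h in sum but no copy was called. LUX, the DNA-binding member of the evening complex, summed to 80.0, 83.5 and 74.8 TPM at 8 h, against 46.7, 49.2 and 69.8 TPM at 4 h (0 of 5 copies called by limma, 3 higher at an unadjusted p under 0.05). GI, which binds ADO2-type proteins in the light, summed to 65.9, 59.9 and 67.6 TPM at 8 h and 52.0, 48.9 and 56.6 TPM at 4 h, with 0 of 2 copies called and 2 higher at an unadjusted p under 0.05. Both had low mock sums, 13.3 to 24.9 TPM for LUX and 24.8 to 25.3 TPM for GI.

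Over the 6 fits the morning count of fallers ranged between 5, without replicate 3 at 4 h, and 14, and the evening count of risers between 10 and 13. With replicate 3 at 8 h and replicate 2 at 4 h both out, 5 morning genes fell and 4 evening genes rose. At 4 h the morning group had a median of -0.01 against mock and the evening group 0.02, while at 8 h the medians against mock were -0.55 and 0.63. These contrasts share libraries with the comparison of 8 h and 4 h, so they place the levels and add no separate test. The call of BnaA05G0011000ZS was lost without replicate 1 at 8 h and without replicate 3 at 4 h (adjusted p up to 0.0645), and that of BnaC03G0393400ZS without replicate 3 at 4 h (0.0549).

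**Figure D2:**
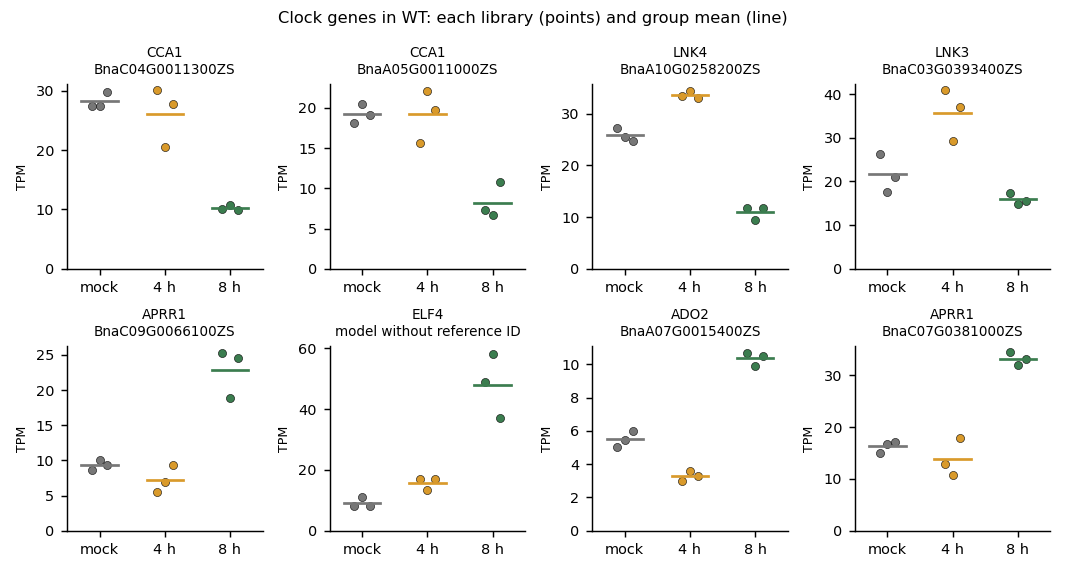
TPM of 8 clock genes in each WT library (points) and the group mean (line), in the order mock, NaCl 4 h and NaCl 8 h. The 4 genes of the morning group lie lower at 8 h than at 4 h in every library, and the 4 of the evening group, ADO2 among them, lie higher, with APRR1 BnaC09G0066100ZS at 18.8 to 25.2 TPM at 8 h and 5.50 to 9.36 TPM at 4 h.

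The NCED genes of abscisic acid synthesis fell at 8 h while their sum stayed far above mock. All 6 tested NCED copies, which encode the dioxygenase that cleaves carotenoids in the limiting step, were lower at 8 h. Their sum was 164, 154 and 173 TPM at 8 h, against 362, 270 and 357 TPM at 4 h and 7.39 to 10.1 TPM in mock. NCED3 BnaA03G0338300ZS fell most, with 5.16, 4.03 and 4.89 TPM at 8 h and 29.6, 21.5 and 26.03 TPM at 4 h (log2 fold change -2.22 ± 0.139 SE, adjusted p = 0.00154). The 6 copies had a median change of -1.005 between the times, and medians of 4.47 at 4 h and 3.52 at 8 h against mock. All 6 were also called lower with replicate 3 at 8 h and replicate 2 at 4 h both out, while 3 were called without any 1 of the 8 h replicates or without replicate 3 at 4 h.

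Of the 43 tested synthesis and breakdown genes 11 fell and none rose, against 2.88% of all genes. Over the 6 fits 5 to 10 fell, with 5 in each of the fits without an 8 h replicate and without replicate 3 at 4 h. BGLU18, which frees abscisic acid from its glucose ester, fell in BnaA06G0018600ZS, with 29.9, 42.8 and 32.4 TPM at 8 h and 97.3, 247 and 99.2 TPM at 4 h (-1.92 ± 0.394, adjusted p = 0.0314). That call was kept in 2 of the 6 fits (adjusted p up to 0.106). The CYP707A hydroxylases, which inactivate the hormone, summed to 60.3, 53.6 and 59.7 TPM at 8 h and 54.0, 56.5 and 52.3 TPM at 4 h. Of their 10 genes 0 were called by limma, with 2 higher and 1 lower at an unadjusted p under 0.05.

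Signalling components downstream of the hormone gave few calls. Of 106 receptors, phosphatases and kinases 2 rose and 1 fell, beside 3.99% and 2.88% of all genes. Their sum was 2842, 2713 and 3020 TPM at 8 h, 2971, 3013 and 3043 TPM at 4 h and 760 to 835 TPM in mock. SRK2D (SnRK2.2), a kinase released when the hormone binds its receptor, was the riser in 2 copies: BnaC07G0388200ZS had 33.5, 35.9 and 36.3 TPM at 8 h and 21.6, 21.1 and 22.2 TPM at 4 h (0.68 ± 0.0721, adjusted p = 0.00519). ABI1, a phosphatase that restrains those kinases, had 63.5, 60.4 and 70.6 TPM at 8 h and 80.8, 86.0 and 85.0 TPM at 4 h (BnaA03G0490700ZS, -0.37 ± 0.0784, adjusted p = 0.0344), and its call was kept in 1 of the 6 fits.

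Dehydrins and other late embryogenesis abundant (LEA) proteins, which protect proteins and membranes as cells lose water, moved in both directions. Of 75 tested genes 6 rose and 11 fell, beside 3.99% and 2.88% of all genes. Of the 19 dehydrins among them 3 rose and 6 fell. RAB18, a dehydrin induced by abscisic acid, was among the risers. RAB18 BnaA09G0101100ZS had 9749, 10368 and 10494 TPM at 8 h, against 4460, 3019 and 4483 TPM at 4 h and 28.5 to 33.9 TPM in mock (log2 fold change 1.38 ± 0.163 SE, adjusted p = 0.00677). Its C subgenome copy, BnaC09G0101000ZS, had 4795, 5585 and 4912 TPM at 8 h and 2368, 1515 and 2302 TPM at 4 h (1.33 ± 0.198, adjusted p = 0.0133). Both copies were higher in every 8 h library, and neither pair of groups overlaps. Dehydrins summed to 28034, 28285 and 29864 TPM at 8 h and 23688, 21694 and 25372 TPM at 4 h, although their median change was -0.40, so the sum and the median had opposite signs.

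LEA29 copies moved apart. BnaA05G0396800ZS had 149, 127 and 182 TPM at 8 h and 361, 286 and 347 TPM at 4 h (-1.12 ± 0.162, adjusted p = 0.0118). BnaC03G0413400ZS had 12.2, 14.1 and 15.8 TPM at 8 h and 7.19, 3.92 and 4.65 TPM at 4 h (1.29 ± 0.188, adjusted p = 0.0123). The first was at most 0.29 TPM and the second was listed at 0 in every mock library. The COR15, KIN and LTI65/LTI78 proteins had 1 riser and 2 fallers of 23. Over the 6 fits the LEA group had 2 to 5 risers and 3 to 10 fallers, both lowest without replicate 1 at 8 h. The calls of BnaC09G0101000ZS and BnaA05G0396800ZS were lost without that library (adjusted p 0.0516 and 0.053) and that of BnaC03G0413400ZS without replicate 3 at 4 h (0.0513).

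Galactinol synthases start the raffinose sugars, which act as osmoprotectants. GOLS2 BnaC09G0202600ZS had 94.4, 79.7 and 112.6 TPM at 8 h and 225, 207 and 210 TPM at 4 h, with 2.44 to 3.10 TPM in mock (-1.17 ± 0.130, adjusted p = 0.0057), and BnaA09G0178900ZS changed by -1.22. RFS2, which moves the galactose unit of galactinol to sucrose, had 129, 126 and 136 TPM at 8 h and 100, 66.3 and 74.4 TPM at 4 h in BnaC08G0374300ZS (0.71 ± 0.171, adjusted p = 0.0492), a call kept in 1 of the 6 fits. In all 2 of 62 raffinose and trehalose genes rose and 11 fell, beside 3.99% and 2.88% of all genes. Among the fallers were 5 of the 22 trehalose phosphate synthases. TPS11 BnaC09G0123200ZS had 12.3, 8.33 and 13.5 TPM at 8 h and 25.4, 28.9 and 25.4 TPM at 4 h (-1.18). The count of fallers ranged between 3, without replicate 1 at 8 h, and 9. Proline genes, whose product is another osmoprotectant, summed to 1642, 1629 and 1831 TPM at 8 h and 1935, 1653 and 1754 TPM at 4 h, against 141 to 146 TPM in mock. The synthetic gene P5CSA BnaA03G0194400ZS fell by 0.75 on the log2 scale, and ALDH12A1 BnaC03G0552600ZS, of proline breakdown, rose by 0.54. The P5CSA call was lost without replicate 1 at 8 h and without replicate 3 at 4 h, and the ALDH12A1 call without replicate 1 at 8 h.

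Jasmonate genes were called lower at 8 h more often than higher, with a wide spread at 4 h. Of 99 tested genes of synthesis and of the JAZ repressors, 21 fell and 3 rose, beside 2.88% and 3.99% of all genes. Their median change was -0.49. AOC2, an allene oxide cyclase of the jasmonate pathway, had 0.54, 0.80 and 0.90 TPM at 8 h, against 7.41, 13.1 and 12.7 TPM at 4 h in BnaA06G0393700ZS (-2.76 ± 0.242, adjusted p = 0.00339). Lipoxygenases, which oxidise linolenic acid at the start of the pathway, fell in 8 of 22 genes and summed to 268, 283 and 396 TPM at 8 h and 417, 1295 and 589 TPM at 4 h. JAZ repressors, themselves induced by jasmonate, fell in 8 of 49 genes and summed to 425, 437 and 578 TPM at 8 h and 505, 989 and 704 TPM at 4 h. Replicate 2 at 4 h was the high library in both sums, and for JAZ the lowest 4 h library lay below the highest 8 h library. Without replicate 2 at 4 h 12 jasmonate genes fell, without replicate 1 at 4 h 29 and without replicate 1 at 8 h 4, and with replicate 2 at 4 h and replicate 3 at 8 h both out 3 fell. AOC4 BnaC08G0222500ZS moved the other way, with 26.3, 31.9 and 27.1 TPM at 8 h and 19.5, 18.6 and 18.1 TPM at 4 h (0.57 ± 0.103, adjusted p = 0.0217), a call kept in 1 of the 6 fits.

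**Figure D3:**
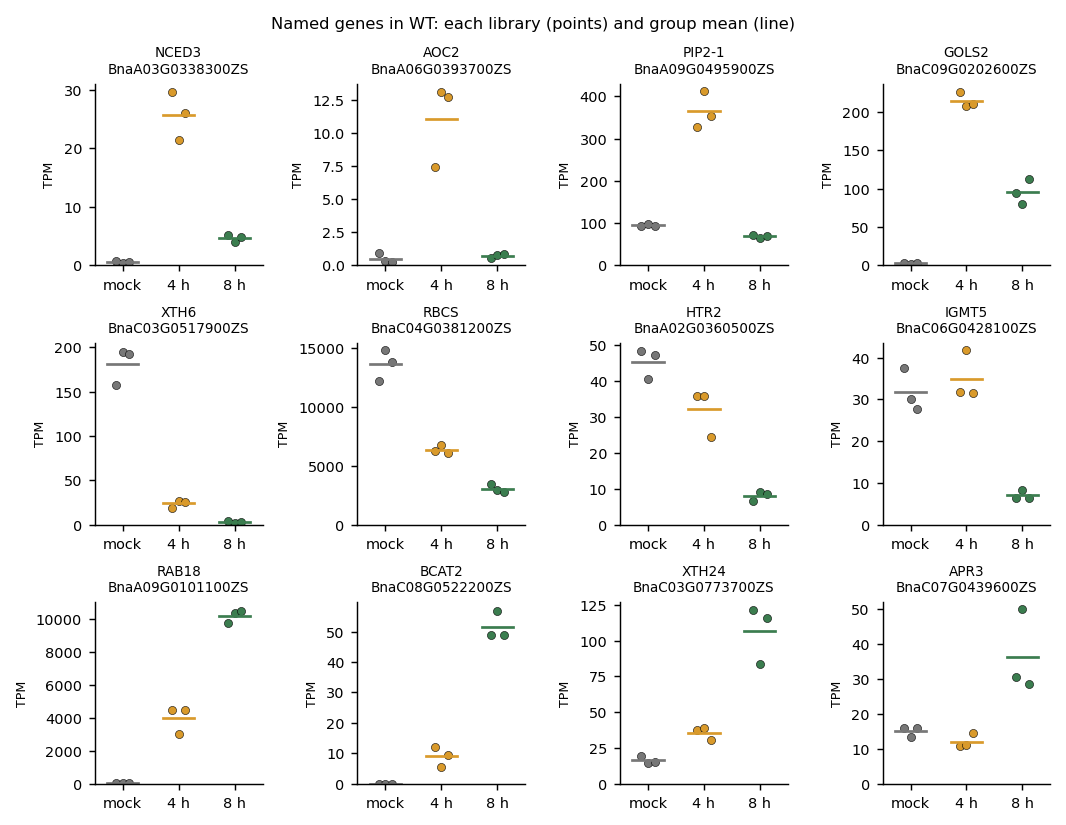
TPM of stress, water and metabolic genes in each WT library (points) and the group mean (line), in the order mock, NaCl 4 h and NaCl 8 h. NCED3 and PIP2-1 lie lower at 8 h than at 4 h in every library, RAB18 higher, with 9749 to 10494 TPM at 8 h and 3019 to 4483 TPM at 4 h.

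Plasma membrane aquaporins set how fast water crosses the cell membrane. Of 25 PIP2 genes 15 fell and none rose, and of 20 PIP1 genes 4 fell, against 2.88% of all genes, with median changes of -0.66 and -0.61. The PIP2 sum was 842, 805 and 839 TPM at 8 h, against 1706, 2187 and 1896 TPM at 4 h and 1651 to 1823 TPM in mock. The PIP1 sum was 1725, 1724 and 1751 TPM at 8 h and 2630, 2975 and 2778 TPM at 4 h. Neither family overlapped between the times, and the 3 libraries at 8 h were nearly equal. PIP2-1 BnaA09G0495900ZS had 71.6, 65.2 and 69.9 TPM at 8 h, against 327, 412 and 355 TPM at 4 h and 93.7 to 99.3 TPM in mock (log2 fold change -2.38 ± 0.0959 SE, adjusted p = 0.000172). PIP2-2 BnaA05G0081400ZS had 20.2, 16.8 and 15.7 TPM at 8 h and 67.6, 168 and 99.4 TPM at 4 h (-2.51 ± 0.286, adjusted p = 0.00593). The count of PIP2 fallers was 10 to 13 over the 6 fits and 8 with replicate 3 at 8 h and replicate 2 at 4 h both out. PIP1 fallers numbered 2 without replicate 1 or 2 at 8 h, without replicate 3 at 4 h, and with replicate 3 at 8 h and replicate 2 at 4 h both out.

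Calls in the other aquaporin families, TIP and NIP with SIP, went both ways. Of the 21 tonoplast (TIP) genes, whose proteins sit in the vacuolar membrane, 3 rose and 4 fell, beside 3.99% and 2.88% of all genes. Their sum was 510, 503 and 571 TPM at 8 h, 828, 1052 and 932 TPM at 4 h and 2171 to 2441 TPM in mock. Of the 3 risers 2 have identical values in all libraries and count as 1, and the risers numbered 0 without replicate 1 at 8 h or replicate 3 at 4 h. Of 19 NIP and SIP genes 1 rose, SIP1-1 BnaC05G0556000ZS with 22.0, 21.1 and 20.8 TPM at 8 h and 16.04, 15.3 and 18.4 TPM at 4 h (0.35 ± 0.0829, adjusted p = 0.0481), and its call was lost in all 6 fits. Over all 85 aquaporins 4 rose and 23 fell, with 16 to 25 fallers over the 6 fits.

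Sodium, potassium and proton transporters gave few calls. Of 130 genes 3 rose and none fell, beside 3.99% and 2.88% of all genes, with 8 lower by limma at an unadjusted p under 0.05. All 3 risers were copies of AHA3, a plasma membrane proton pump, for example BnaC02G0145800ZS with 42.4, 45.7 and 42.9 TPM at 8 h and 29.8, 34.6 and 30.1 TPM at 4 h (0.46 ± 0.0882, adjusted p = 0.0256). Each of these calls was kept in only 1 or 2 of the 6 fits. Of 100 CBL and CIPK genes, the calcium sensors and kinases that regulate such transporters, 7 rose and 2 fell. CIPK21 BnaC03G0127800ZS had 21.5, 22.1 and 19.7 TPM at 8 h, against 10.3, 9.70 and 10.5 TPM at 4 h (0.98 ± 0.101, adjusted p = 0.00496). CIPK9 BnaA09G0714900ZS, whose protein acts in the response to low potassium, had 9.07, 6.79 and 8.02 TPM at 8 h and 14.9, 16.7 and 17.02 TPM at 4 h (-0.95 ± 0.113, adjusted p = 0.00691). The CBL and CIPK risers numbered 2 without replicate 1 or 2 at 8 h or replicate 3 at 4 h, and 3 without replicate 3 at 8 h or replicate 2 at 4 h.

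Wall-loosening proteins fell more often than they rose. Of 74 expansins, which let cellulose and xyloglucan slide past each other, 13 fell and 3 rose, beside 2.88% and 3.99% of all genes. Their median change was -0.27. EXPA16 BnaC04G0315200ZS had 2.97, 0.93 and 3.43 TPM at 8 h, against 12.3, 19.7 and 15.4 TPM at 4 h and 0.24 to 0.35 TPM in mock (-2.35 ± 0.310, adjusted p = 0.00925). The xyloglucan endotransglucosylases (XTH), which join and recut xyloglucan chains, rose in 5 and fell in 7 of 66 genes. XTH6 BnaC03G0517900ZS had 3.95, 2.33 and 3.50 TPM at 8 h, against 18.9, 26.9 and 25.9 TPM at 4 h and 157 to 195 TPM in mock (-2.55 ± 0.189, adjusted p = 0.00215). XTH24 BnaC03G0773700ZS went the other way, with 121, 83.3 and 115 TPM at 8 h and 37.3, 39.1 and 30.3 TPM at 4 h (1.55 ± 0.180, adjusted p = 0.00635). Over the 6 fits 2 to 15 expansins fell, with 2 without replicate 3 at 4 h and 4 without replicate 1 at 8 h, and 3 to 5 XTH genes did. The fallers were 1 expansin and 3 XTH genes with replicate 3 at 8 h and replicate 2 at 4 h both out.

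Cellulose synthases, pectin enzymes and arabinogalactan proteins gave 15 risers and 19 fallers of 408, beside 3.99% and 2.88% of all genes. FLA9, a fasciclin-like arabinogalactan protein, fell in 2 copies, BnaA09G0194300ZS with 1.97, 1.23 and 1.63 TPM at 8 h and 6.52, 7.70 and 5.93 TPM at 4 h (-1.57 ± 0.161, adjusted p = 0.00498). PME35, which demethylates pectin, rose in BnaC04G0288500ZS, with 15.6, 16.4 and 11.2 TPM at 8 h and 5.80, 5.28 and 5.52 TPM at 4 h (1.22 ± 0.138, adjusted p = 0.00593). The risers of this group numbered 4 to 10 and the fallers 3 to 16 over the 6 fits, both lowest without replicate 1 at 8 h.

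**Figure D4:**
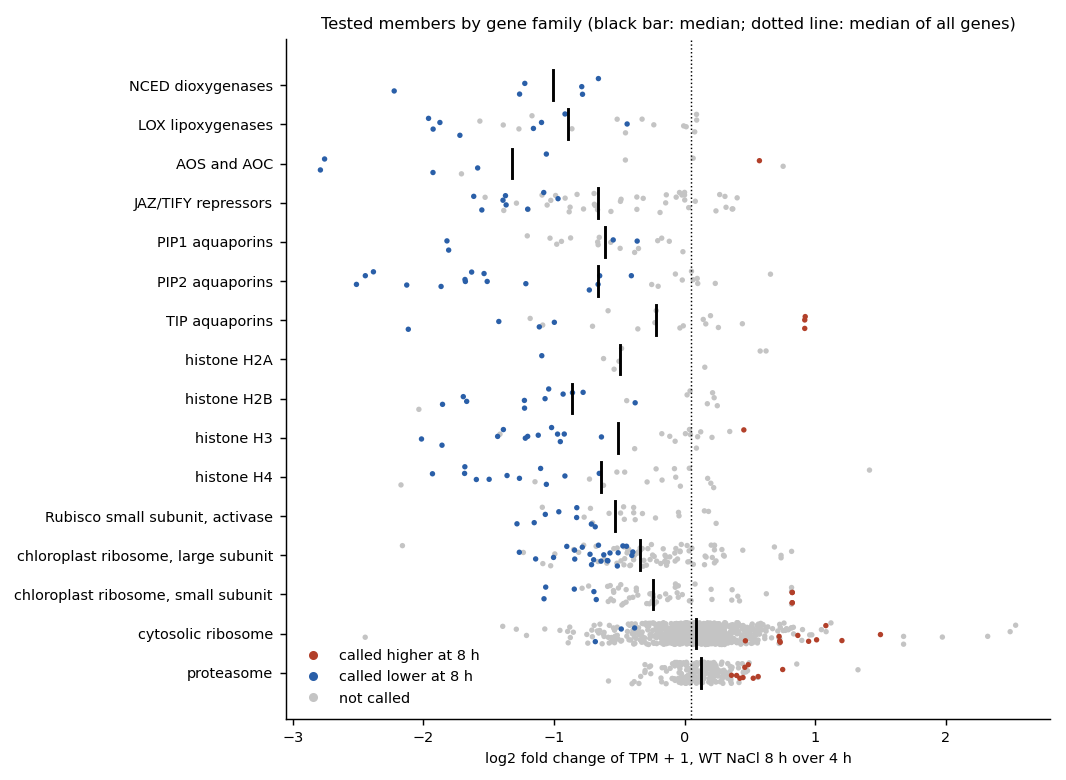
Log2 fold change, NaCl 8 h against NaCl 4 h in WT, of each tested member of selected gene families (points, called genes in colour) with the family median (bar). PIP2 aquaporins, NCED dioxygenases and histone H2B lie mostly below 0, with medians of -0.66, -1.005 and -0.86, while the all-gene median is 0.05.

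Core histones, which package DNA, were lower at 8 h in 3 families, while genes of the replication fork had lower sums but gave no call. Of the H2B genes 11 of 19 fell, of the H3 genes 12 of 26, of the H4 genes 11 of 28 and of the H2A genes 1 of 8, with 1 riser among H3 and none in the other families. Over all genes 2.88% fell and 3.99% rose. HTR2 BnaA02G0360500ZS, a histone H3.2, had 6.60, 8.98 and 8.54 TPM at 8 h, against 35.8, 35.7 and 24.5 TPM at 4 h and 40.5 to 48.4 TPM in mock (log2 fold change -1.86 ± 0.172 SE, adjusted p = 0.00415). H2B.11 BnaC03G0608100ZS had 3.79, 2.91 and 3.38 TPM at 8 h and 13.9, 17.4 and 13.1 TPM at 4 h (-1.85 ± 0.152, adjusted p = 0.0026). The riser was HTR4, the H3.3 variant that is deposited outside replication, at 47.2, 50.8 and 46.5 TPM at 8 h and 39.1, 30.7 and 35.3 TPM at 4 h (0.45 ± 0.105, adjusted p = 0.044), a call kept in 1 of the 6 fits. The summed histone H4 genes, 1274, 1460 and 1194 TPM at 8 h and 2073, 1541 and 1792 TPM at 4 h, did not overlap. Between 5 and 11 H2B genes, 6 and 10 H3 genes and 4 and 10 H4 genes fell over the 6 fits.

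Cyclins and cell cycle kinases fell in 18 and rose in 3 of 186 genes, beside 2.88% and 3.99% of all genes. None of the 23 MCM and PCNA genes of the replication fork was called by limma, also at an unadjusted p under 0.05. The cyclin and kinase fallers numbered 0 without replicate 3 at 4 h, 5 without replicate 1 at 8 h, 7 without replicate 2 at 8 h, 8 without replicate 3 at 8 h, 9 without replicate 2 at 4 h and 11 without replicate 1 at 4 h. With replicate 3 at 8 h and replicate 2 at 4 h both out, 2 fell. The MCM and PCNA sum was 34.1, 38.2 and 29.4 TPM at 8 h, 59.5, 39.4 and 42.3 TPM at 4 h and 89.5 to 108 TPM in mock. These sums did not overlap between the times. Of the 23 estimates 20 were lower and 3 higher at 8 h, with a median change of -0.20, beside 24957 lower of all 57923 genes. Levels per gene were low, where the log2(TPM + 1) scale understates changes, so the missing calls do not show unchanged levels. CYCB1-2 rose in a gene model without a chromosome ID, with 24.4, 23.9 and 20.4 TPM at 8 h and 14.9, 11.3 and 13.8 TPM at 4 h (0.74 ± 0.114, adjusted p = 0.0143), a call lost without replicate 1 at 8 h (0.0612). In the whole group of 290 histone and cell division genes 53 fell, with 23 without replicate 1 at 8 h, 31 without replicate 2 at 8 h, 29 without replicate 3 at 8 h, 16 without replicate 3 at 4 h, and 24 with replicate 3 at 8 h and replicate 2 at 4 h both out. The summed markers of the shoot meristem were low at both times, 8.58 to 17.02 TPM at 8 h and 6.82 to 11.8 TPM at 4 h, with neither of the 2 tested genes called. The part of dividing cells in these falls was not tested.

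Of 109 photosystem and Rubisco genes 14 fell and none rose (3 higher at an unadjusted p under 0.05 in limma), beside 2.88% and 3.99% of all genes. Of the 14 fallers 8 were in the Rubisco group. The small subunit of Rubisco, the carbon-fixing enzyme, and its activase fell in 8 of 26 genes, with a median change of -0.53. They summed to 26596, 26896 and 22830 TPM at 8 h, against 41008, 38967 and 37775 TPM at 4 h and 72440 to 88166 TPM in mock. The levels therefore stood in the order mock, 4 h and 8 h without overlap. RBCS BnaC04G0381200ZS had 3453, 2934 and 2777 TPM at 8 h, against 6257, 6808 and 6069 TPM at 4 h (-1.07 ± 0.144, adjusted p = 0.00984). Photosystem I and II subunits fell in 3 of 44 and 3 of 39 genes, and their sums were 18246 to 20847 TPM and 14023 to 15781 TPM at 8 h, against 21122 to 22199 TPM and 15543 to 16170 TPM at 4 h. Light-harvesting proteins, which feed the photosystems with excitation, fell in 5 of 69 genes and summed to 48438, 52604 and 48706 TPM at 8 h and 52781, 56523 and 51679 TPM at 4 h. The light-harvesting sums overlap, and the chlorophyll synthesis genes (3 fallers of 66) overlap as well, with 2660, 2930 and 2570 TPM at 8 h and 2840, 2938 and 2722 TPM at 4 h. The light-harvesting fallers numbered 0 without replicate 1 at 8 h, 1 without replicate 3 at 8 h, 2 without replicate 3 at 4 h and 3 without replicate 1 or 2 at 4 h, and 0 with replicate 3 at 8 h and replicate 2 at 4 h both out. Those of chlorophyll synthesis numbered 0 to 4 over the 6 fits. Without replicate 1 at 8 h the Rubisco fallers numbered 2, without replicate 3 at 8 h 2, without replicate 3 at 4 h 2, without replicate 2 at 8 h 4 and without replicate 1 at 4 h 4. With replicate 3 at 8 h and replicate 2 at 4 h both out, 1 of the 26 Rubisco genes was called lower, with a median of -0.51. Because these genes are also the markers of mesophyll, whose sum was 38332 to 42558 TPM at 8 h and 54765 to 57465 TPM at 4 h, their fall cannot be told apart from a smaller share of mesophyll RNA in the samples.

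Ribosomal proteins of the chloroplast gave many fallers. Of 102 large-subunit genes of the chloroplast ribosome 22 fell and none rose, with a median change of -0.34 and sums of 3431, 3623 and 3343 TPM at 8 h against 4921, 4714 and 4406 TPM at 4 h. Of 61 small-subunit genes 5 fell and 4 rose, and the 4 risers have identical values in all libraries and count as 1. RPL24 BnaC02G0165500ZS had 23.1, 25.2 and 23.03 TPM at 8 h and 45.9, 68.3 and 48.8 TPM at 4 h (-1.14 ± 0.157, adjusted p = 0.0104). The copy of L19-2 BnaA09G0212500ZS changed by -1.26 and RPS10 BnaA05G0420500ZS by -1.08. Over the 6 fits 9 to 14 of the 163 chloroplast ribosomal genes fell, with 9 without replicate 1 at 8 h, and 4 fell with replicate 3 at 8 h and replicate 2 at 4 h both out. Of 805 cytosolic ribosomal protein genes 10 rose and 3 fell, beside 3.99% and 2.88% of all genes, and their sums overlapped, with 25464, 27368 and 27011 TPM at 8 h and 26064, 24706 and 26806 TPM at 4 h.

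Starch and amino acid breakdown changed gene by gene. Of 73 genes of starch breakdown 8 rose and 9 fell, beside 3.99% and 2.88% of all genes. GWD3, which phosphorylates starch so that amylases can reach it, had 87.7, 98.3 and 74.95 TPM at 8 h and 39.2, 22.99 and 39.7 TPM at 4 h in BnaC09G0049400ZS (1.36 ± 0.206, adjusted p = 0.0138), and BnaC02G0505100ZS rose by 0.91. BAM3, the main leaf beta-amylase of the night, rose in BnaA03G0438900ZS, with 12.8, 16.1 and 10.9 TPM at 8 h and 6.21, 5.44 and 6.09 TPM at 4 h (1.03 ± 0.148, adjusted p = 0.0118). BAM1, the beta-amylase active in the stress response, fell in BnaA07G0069900ZS, with 31.6, 36.1 and 38.04 TPM at 8 h and 65.1, 92.6 and 71.7 TPM at 4 h (-1.08 ± 0.147, adjusted p = 0.0100). BAM9, a catalytically inactive relative, fell in 2 copies. The calls of BnaC09G0049400ZS and BnaA03G0438900ZS were lost without replicate 1 at 8 h (adjusted p 0.0567 and 0.0503), and the starch risers numbered 1 without that library.

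Genes of starvation and senescence contained a few strong risers. BCAT2, a chloroplast aminotransferase of branched-chain amino acids, rose in both called copies: BnaC08G0522200ZS had 48.8, 56.8 and 49.0 TPM at 8 h, against 12.03, 5.59 and 9.44 TPM at 4 h (2.44 ± 0.223, adjusted p = 0.00387). BnaA09G0659300ZS had 12.5, 14.7 and 10.2 TPM at 8 h, against 1.48, 0.82 and 1.0 TPM at 4 h (2.68 ± 0.163, adjusted p = 0.0014). Both were listed at 0 in every mock library. SAG12, a cysteine protease used as a marker of leaf senescence, had 17.4, 8.91 and 13.6 TPM at 8 h and 2.63, 2.82 and 2.18 TPM at 4 h in BnaC02G0403500ZS, again listed at 0 in mock (1.97 ± 0.210, adjusted p = 0.0053). In the wider groups, of 82 starvation genes 4 rose and 5 fell, of 57 chlorophyll breakdown and senescence genes 3 rose and 3 fell. Over all genes 3.99% rose and 2.88% fell. Of 131 autophagy genes none rose and 3 fell (8 higher at an unadjusted p under 0.05 in limma). The autophagy fallers numbered 0 without replicate 1 or 2 at 8 h or replicate 3 at 4 h. The starvation sum was 5893, 4973 and 6198 TPM at 8 h and 6193, 6538 and 6446 TPM at 4 h, against 2046 to 2568 TPM in mock.

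Nitrogen and sulfur assimilation split. Nitrate reductase, which turns nitrate into nitrite, fell: NIA1 BnaA07G0369900ZS had 16.5, 18.8 and 13.96 TPM at 8 h, against 38.8, 49.4 and 39.1 TPM at 4 h and 118 to 128 TPM in mock (-1.32 ± 0.131, adjusted p = 0.00477). NIA2 BnaA07G0237900ZS had 5.30, 4.14 and 2.82 TPM at 8 h and 14.2, 9.22 and 12.4 TPM at 4 h (-1.36 ± 0.202, adjusted p = 0.0133). With nitrite reductase, 4 of 10 genes fell, and the sum was at most 158 TPM in any library at 8 h and at least 202 TPM in any library at 4 h. Glutamine synthetases, which take up the ammonium made, had 7 fallers and 1 riser among 24 genes, beside 2.88% and 3.99% of all genes. Their median was -0.35, with sums of 1674, 1775 and 1522 TPM at 8 h and 2314, 2541 and 2215 TPM at 4 h. Enzymes that activate and reduce sulfate rose in 9 of 29 genes and fell in 1, and summed to 530, 642 and 474 TPM at 8 h, against 325, 386 and 375 TPM at 4 h and 291 to 323 TPM in mock. Between 4 and 7 of these genes rose over the 6 fits. APR3, an APS reductase, had 30.5, 49.9 and 28.5 TPM at 8 h and 10.7, 10.9 and 14.4 TPM at 4 h in BnaC07G0439600ZS (1.48 ± 0.215, adjusted p = 0.0121). Sulfate transporters fell in 4 and rose in 2 of 28 genes, and the nitrate and peptide transporters NPF and NRT2 rose in 10 and fell in 5 of 120. In all 23 of 221 genes rose and 24 fell, 6 of the fallers and 8 of the risers without replicate 1 at 8 h, 7 and 10 without replicate 3 at 4 h and 9 and 11 without replicate 2 at 8 h. The NIA2 call was lost without replicate 3 at 4 h (adjusted p 0.0533).

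ERF factors, which bind the GCC box, fell in 13 and rose in 5 of 201 genes, beside 2.88% and 3.99% of all genes. ERF8 BnaA08G0015900ZS, a repressor of that class, had 3.57, 2.60 and 2.81 TPM at 8 h, against 12.7, 12.7 and 12.3 TPM at 4 h (-1.77 ± 0.203, adjusted p = 0.006). ERF4 BnaC03G0795800ZS had 8.03, 9.93 and 7.43 TPM at 8 h and 23.7, 29.7 and 26.1 TPM at 4 h (-1.54 ± 0.161, adjusted p = 0.00509). NAC072 (RD26), a factor induced by drought and abscisic acid, fell in BnaA01G0166900ZS, with 20.4, 17.8 and 23.2 TPM at 8 h, 44.1, 41.4 and 41.5 TPM at 4 h and 0.81 to 0.84 TPM in mock (-1.02 ± 0.1002, adjusted p = 0.00474). NAC genes gave 4 risers and 4 fallers of 210, or 1.9% each. WRKY factors gave 4 risers and 6 fallers of 149, and heat stress factors 2 risers and no faller of 69 (8 lower at an unadjusted p under 0.05). None of 16 DREB and CBF factors, which act in cold and dehydration, was called by limma, with 2 higher and 1 lower at an unadjusted p under 0.05. The ERF fallers numbered 3 without replicate 1 at 8 h, 3 without replicate 2 at 8 h and 3 without replicate 3 at 4 h. They numbered 1 with replicate 3 at 8 h and replicate 2 at 4 h both out. NAC, WRKY and heat stress factors each gave 0 risers without replicate 1 at 8 h.

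Ethylene genes, whose hormone acts in stress and ageing, gave 1 riser and 3 fallers of 74 and auxin response genes 5 and 4 of 236. Over all genes 3.99% rose and 2.88% fell, and the auxin shares, 2.1% and 1.7%, were lower. Gibberellin, brassinosteroid and cytokinin genes gave 10 risers and 17 fallers of 191. LOG1 BnaC04G0482800ZS, which releases active cytokinin, had 29.1, 28.1 and 19.6 TPM at 8 h and 82.1, 65.6 and 73.4 TPM at 4 h (-1.50 ± 0.152, adjusted p = 0.00496). ARR4 BnaC08G0202000ZS, a cytokinin-induced response regulator, had 3.11, 1.70 and 3.02 TPM at 8 h and 11.8, 7.68 and 9.38 TPM at 4 h (-1.56 ± 0.225, adjusted p = 0.0118). The risers of these 3 hormone groups numbered 2 and the fallers 8 without replicate 1 at 8 h, and 4 and 5 without replicate 3 at 4 h. Calmodulins and calcium-dependent kinases gave 7 risers and 6 fallers of 175, beside 3.99% and 2.88% of all genes. Their risers numbered 0 to 6 and their fallers 2 to 6 over the 6 fits. Phosphate starvation genes gave 2 and 3 of 69, iron homeostasis genes 5 and 1 of 80, and hypoxia genes 0 and 0 of 44, with 1 higher by limma at an unadjusted p under 0.05. The iron risers numbered 0 without replicate 1 or 2 at 8 h or replicate 3 at 4 h. Ethylene fallers numbered 0 to 2 over the 6 fits, auxin risers 1 to 5 and auxin fallers 0 to 4.

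Of 200 proteasome subunit genes, whose products degrade ubiquitin-tagged proteins, 9 rose and none fell (4 lower at an unadjusted p under 0.05 in limma), 54 had all 3 libraries at 8 h above those at 4 h and 5 had them all below. Over all genes these shares were 17.5% and 10.6%, and 3.99% were called higher and 2.88% lower. The sum was 3782, 3849 and 3740 TPM at 8 h, against 3453, 3406 and 3420 TPM at 4 h and 2807 to 3086 TPM in mock, groups that do not overlap. Over the 6 fits 0 to 4 genes were called, 0 without replicate 1 at 8 h or replicate 3 at 4 h, 1 without replicate 2 or 3 at 8 h and 2 without replicate 2 at 4 h. Heat shock proteins and chaperones rose in 10 and fell in 3 of 136 genes. The small heat shock protein hspc4-1 BnaC05G0046300ZS had 203, 218 and 188 TPM at 8 h and 89.4, 79.4 and 96.5 TPM at 4 h (1.19 ± 0.099, adjusted p = 0.00265). The heat shock risers numbered 1 without replicate 1 at 8 h, 3 without replicate 2 or 3 at 4 h, 4 without replicate 2 at 8 h, 5 without replicate 3 at 8 h and 6 without replicate 1 at 4 h.

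Antioxidant enzymes and glutathione transferases fell in 18 and rose in 11 of 309 genes, beside 2.88% and 3.99% of all genes. GRXS11, a CC-type glutaredoxin, had 3.04, 2.97 and 2.77 TPM at 8 h, against 36.1, 20.4 and 26.3 TPM at 4 h and 105 to 153 TPM in mock, in a gene model without a chromosome ID (-2.83 ± 0.210, adjusted p = 0.00215). FSD1, the chloroplast iron superoxide dismutase, had 86.1, 110 and 82.5 TPM at 8 h and 61.9, 23.3 and 30.97 TPM at 4 h in BnaC07G0462000ZS (1.35 ± 0.318, adjusted p = 0.0462), a call kept in 1 of the 6 fits. Class III peroxidases gave 3 risers and 2 fallers of 91. Defence and pathogenesis-related genes rose in 7 and fell in 1 of 100. Among the risers was HEL BnaC03G0354700ZS, a chitin-binding protein, with 99.1, 84.3 and 104 TPM at 8 h and 36.5, 48.4 and 60.1 TPM at 4 h (0.99 ± 0.191, adjusted p = 0.026), a call kept in 2 of the 6 fits. The antioxidant risers numbered 3 and the fallers 8 without replicate 1 at 8 h, and 4 and 11 without replicate 3 at 4 h. The defence risers numbered 0 without replicate 1 at 8 h and 4 without replicate 1 at 4 h.

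Glucosinolate synthesis genes, whose products deter herbivores in Brassica, fell in 16 and rose in 3 of 110, beside 2.88% and 3.99% of all genes. Their median change was -0.30. IGMT5 BnaC06G0428100ZS, which methylates indole glucosinolates, had 6.43, 8.37 and 6.46 TPM at 8 h, against 31.7, 41.8 and 31.5 TPM at 4 h (-2.15 ± 0.162, adjusted p = 0.00223). CYP81F4 BnaC03G0687900ZS, which hydroxylates the same compounds, had 0.71, 0.32 and 0.41 TPM at 8 h and 3.78, 10.8 and 5.14 TPM at 4 h (-2.25 ± 0.304, adjusted p = 0.00984), and 7 of the 30 IGMT and CYP81F genes fell and 2 rose. The glucosinolate fallers ranged between 7, without replicate 1 at 8 h, and 21, without replicate 1 at 4 h. Phenylpropanoid and lignin genes fell in 8 of 126 and rose in none (3 higher at an unadjusted p under 0.05 in limma). CAD8 BnaA08G0190100ZS, a cinnamyl alcohol dehydrogenase, had 1.57, 1.24 and 1.02 TPM at 8 h and 5.59, 11.7 and 10.9 TPM at 4 h (-2.14 ± 0.273, adjusted p = 0.00829). Flavonoid genes gave 1 riser and 1 faller of 46 and wax and cutin genes 5 risers and 1 faller of 124. CER26 BnaA04G0073500ZS, which acts in wax chain elongation, had 24.4, 25.6 and 20.9 TPM at 8 h and 14.1, 11.02 and 15.2 TPM at 4 h (0.78 ± 0.131, adjusted p = 0.0178), a call lost without replicate 1 or replicate 2 at 8 h (up to 0.0708). Phenylpropanoid fallers numbered 3 without replicate 3 at 4 h, 4 without any 1 of the 8 h replicates, 5 without replicate 2 at 4 h and 11 without replicate 1 at 4 h. They numbered 0 with replicate 3 at 8 h and replicate 2 at 4 h both out. Wax risers numbered 0 without replicate 1 or 2 at 8 h and 1 without replicate 3 at 8 h, replicate 2 at 4 h or replicate 3 at 4 h.

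Among the strongest single risers of the whole table was HIPP22, a metal-binding protein with a lipid anchor. BnaC07G0176500ZS had 26.7, 28.2 and 25.7 TPM at 8 h, against 4.29, 3.57 and 5.27 TPM at 4 h and at most 0.09 TPM in mock (2.38 ± 0.126, adjusted p = 0.000879). ENODL1, an early nodulin-like protein, had 42.5, 32.8 and 36.7 TPM at 8 h and 12.6, 3.99 and 9.10 TPM at 4 h in a gene model without a chromosome ID (2.11 ± 0.388, adjusted p = 0.0227). DJ1A BnaC04G0350800ZS had 20.9, 23.4 and 45.3 TPM at 8 h and 5.74, 8.76 and 5.26 TPM at 4 h (1.97 ± 0.306, adjusted p = 0.015). The ENODL1 call was kept in 2 of the 6 fits and the DJ1A call was lost without replicate 3 at 4 h. At the other end, BnaA03G0227500ZS, annotated as cytochrome c oxidase subunit 5C-1, was listed at 0 in all 3 libraries at 8 h, against 7.71, 16.5 and 13.1 TPM at 4 h and 7.69 to 17.2 TPM in mock (adjusted p = 0.00294). No fold change is given for it. CYTB5-C BnaA04G0294200ZS, an electron carrier of the endoplasmic reticulum, had 4.35, 10.3 and 6.43 TPM at 8 h and 41.0, 49.9 and 37.1 TPM at 4 h (-2.50 ± 0.349, adjusted p = 0.0107). CORI3, a cystine lyase induced by coronatine, had 35.3, 44.6 and 43.6 TPM at 8 h and 132, 646 and 264 TPM at 4 h (-2.76 ± 0.480, adjusted p = 0.0197), a call kept in 2 of the 6 fits.

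The same step between the times was measured in bnagrp3 libraries, which share none with WT. There 8863 genes were called in a fit of all 18 libraries, 5940 higher at 8 h (10.3% of those tested) and 2923 lower (5.05%). Across all tested genes the log2 fold changes of WT and bnagrp3 had a Pearson r of 0.479 (Spearman rho 0.519), a description across genes, which are not independent. Of the 3981 genes called in WT, 3809 (95.7%) had the same sign in bnagrp3, against 69.2% of all tested genes. Called higher in both were 1660 genes, 71.8% of those called higher in WT and 27.9% of those called higher in bnagrp3, and called lower in both were 1065, or 63.8% of the WT genes and 36.4% of the bnagrp3 genes. The counts of the 2 genotypes come from fits with different spreads and cannot be read as a larger response, and 4 genes were called in opposite directions. The shares called in both depend on these unlike fits as well. In the fit of all 18 libraries WT itself had 8541 calls, 5209 higher and 3332 lower at 8 h. In bnagrp3 the morning clock group had 12 fallers and no riser of 49, the evening group 17 risers and no faller of 45, and the jasmonate group 36 fallers and 3 risers of 99. Of the 6 NCED copies 6 fell in WT and 2 in bnagrp3, with medians of -1.005 and -0.25. Of the 25 PIP2 genes 15 fell and 0 rose in WT, while 11 fell and 3 rose in bnagrp3 (medians -0.66 and -0.28). Phenylpropanoid and lignin genes had 8 fallers and 0 risers in WT and 15 fallers and 19 risers in bnagrp3 (medians -0.19 and 0.14). Differences between the genotypes were tested by gene and not by group. PIP2-1 BnaA09G0495900ZS changed by -2.38 in WT and -2.02 in bnagrp3, RAB18 BnaA09G0101100ZS by 1.38 in WT and 1.62 in bnagrp3, and NCED3 BnaA03G0338300ZS by -2.22 in WT and -1.53 in bnagrp3, and none of these 3 differences passed the test described next.

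The difference of the 2 changes, WT minus bnagrp3, was called for 4 of 57923 genes (0.00691%), with 4426 at an unadjusted p under 0.05. The 4 are named here after their values were seen. BRK1 BnaC08G0442600ZS, a subunit of the SCAR/WAVE complex that nucleates actin, was listed at 0 in all 3 WT libraries at 8 h, against 2.73, 5.68 and 4.71 TPM at 4 h (adjusted p of the difference 0.0357). In bnagrp3 it had 3.27, 3.11 and 3.01 TPM at 8 h and was listed at 0 at 4 h. BnaC02G0480600ZS, without a Swiss-Prot name, was likewise listed at 0 in WT at 8 h, against 18.5, 19.9 and 46.7 TPM at 4 h and 0 in mock (adjusted p of the difference 4.5e-05), and at 0 in every bnagrp3 library. BnaA10G0206800ZS, also unnamed, had 53.2, 46.5 and 53.7 TPM at 8 h and 52.1, 55.3 and 60.5 TPM at 4 h in WT, with a change of 0.66 in bnagrp3. A gene model without a chromosome ID or a name had 3.67, 3.23 and 3.09 TPM at 8 h and 10.5, 8.68 and 8.31 TPM at 4 h in WT, and was listed at 0 in every bnagrp3 library. Over the fits that each leave out 1 of the 12 NaCl libraries the number of calls ranged between 1 and 26, so the set of 4 depends on single libraries. There were 26 without WT replicate 1 at 4 h, 20 without WT replicate 2 at 4 h, 13 and 12 without WT replicates 2 and 3 at 8 h. There were 2 without bnagrp3 replicate 2 at 8 h, and 1 each without WT replicate 3 at 4 h, WT replicate 1 at 8 h, bnagrp3 replicate 3 at 4 h and bnagrp3 replicate 1 at 8 h. In simulated data for this test, 44% of differences of 1 and 81% of differences of 2 on the log2 scale were recovered. The changed genes had a mean log2(TPM + 1) above 2. Errors were independent and normal, with 1 spread per gene for both genotypes, so recovery for lower genes or uneven libraries was not measured.

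**Figure D5:**
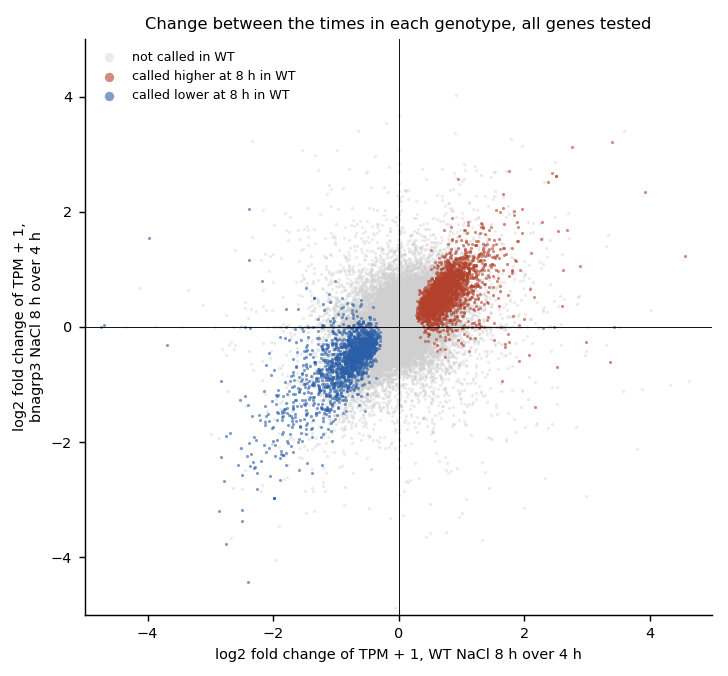
Log2 fold change, NaCl 8 h against NaCl 4 h, in WT (horizontal axis) and in bnagrp3 (vertical axis) for all tested genes, with genes called in WT coloured by direction. Most called genes lie in the quadrants of equal sign, 3809 of 3981.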

How the data were processed

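RNA-seq of poly(A) RNA from the aerial part was analysed for 18 libraries, 3 in each of 6 groups. The TPM values were deposited by the authors as 1 table of 108207 gene rows, per the file headers. The tools listed are fastp, HISAT2 and featureCounts, per the submitters' processing notes. The build was not given in the sources used here, nor was the annotation. TPM keep no depth, so no counting error could be given, and a count model was not used. Gene symbols are the Swiss-Prot names in the table.

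Genes at 1 TPM or more in at least 3 of the 18 libraries were tested (57923). Log2(TPM + 1) was fitted with limma 3.58.1 in R 4.3.3 (trend on, WT libraries in the main comparison, all 18 for the genotypes), with 6 residual degrees of freedom, or 12 in the fit of all 18. P-values were adjusted by the Benjamini-Hochberg method over all tested genes, called under 0.05, and every adjusted p in the text comes from limma. SE is the standard error of the log2 fold change. On simulated data 44% of genes with a step of 1 on the log2 scale and 82% with a step of 2 were recovered in the WT comparison. The changed genes had a mean log2(TPM + 1) above 2, with independent normal errors, so these shares do not cover lower genes or uneven libraries. Tables and figures were made with Python 3.11.15 and matplotlib 3.10.9.

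The libraries, gene lists and tests were chosen with earlier results of these data known. The genes named are, for each of 45 lists and each direction, up to 3 called genes (6 in the clock lists) with the largest change. Their 3 libraries at 8 h all lie above or all below those at 4 h, and their mean reaches 5 TPM at either time. Over the whole table the 10 largest each way with a product name and a mean of at least 10 TPM were added, and the GRP3 genes. Identical rows (648 tested genes share all 18 values with another) are counted as listed. Same-numbered libraries did not deviate together (correlations -0.06, -0.43 and 0.01), and the replicate numbers were not taken as pairs. The labels do not say whether they are, and these correlations cannot exclude it. Alternatives are given in the closing section.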

Additional observations from a re-analysis of the deposited data

Results flagged for a closer look

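The change between 8 h and 4 h differed between WT and bnagrp3 by the test of the difference itself in 4 genes, given as WT minus bnagrp3 on the log2(TPM + 1) scale. The difference was -4.75 for BnaC02G0480600ZS and -4.43 for BRK1 BnaC08G0442600ZS, both listed at 0 in WT at 8 h, so that these values depend on the pseudocount. It was -1.23 for a gene model without a chromosome ID, which had 3.67, 3.23 and 3.09 TPM at 8 h and 10.5, 8.68 and 8.31 TPM at 4 h in WT, and -0.79 for BnaA10G0206800ZS.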

How the results depend on the processing

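The 3981 calls (2311 higher and 1670 lower at 8 h) varied with the fit. Requiring an absolute log2 fold change of at least 1 left 905 (413 higher, 492 lower). All 18 libraries in the fit gave 8541 (5209 and 3332), only the 6 libraries compared 1848 (1112 and 736), array weights, whose estimation did not fully converge, 17084 (10119 and 6965), and the replicate block 1142 (549 and 593). Median-of-ratios rescaling gave 1539 higher. Leaving out both replicate 2 at 4 h and replicate 3 at 8 h gave 539 (237 and 302). Leaving out 1 library gave 749 to 2812 calls, 341 to 1501 higher and 408 to 1311 lower. The 4 genes of the difference between genotypes numbered 2 with a filter of 5 TPM, 26 with no filter, 2 with median-of-ratios rescaling, 1 with quantile normalisation, 2 with the replicate block, 3278 with array weights and 1 to 26 without 1 library. The cause of these shifts was not tested, apart from the smaller number of libraries or genes that some of them use by construction. Pseudocount 0.1, no filter and a filter of 5 TPM kept the WT count within 1.5 times. The labels do not say whether the replicate numbers pair the libraries. Deviations of same-numbered libraries correlated at -0.06, -0.43 and 0.01, and those of differently numbered ones at -0.42 to 0.46. The highest value, 0.46, joins replicate 2 at 8 h and replicate 1 at 4 h, both with a share of 0 for the 326 genes typical of bnagrp3. The next, 0.41, joins replicate 3 at 8 h and replicate 2 at 4 h, which had the highest shares (0.369 and 0.670). The crossed pairs of these libraries were at -0.42 and -0.43. Whether the spread within a time follows that share was not tested. These correlations cannot decide whether the numbers mark pairs. No called gene named in the text changed direction under any alternative, but many lost their call. Of 196 called genes chosen for naming, 51 stayed called with replicate 2 at 4 h and replicate 3 at 8 h both out. Over the fits that leave out 1 library, 74 stayed called without replicate 1 at 8 h, the fewest. There were 87 without replicate 3 at 4 h and 144, the most, without replicate 1 at 4 h. The unknown depth, the uncertain division of reads between near-identical copies and 3 libraries per time limit what a missing call can show.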
